A study of Mus musculus with 2 samples.

Results

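The genes described here encode the proteins that open replication origins, copy the DNA and keep the replication fork intact, measured as mRNA in regenerating mouse livers. They are 43 symbols in 10 roles, chosen by name, and all 43 had a row among the 33224 named genes of the deposited table. Hepatic RNA came from male C57BL/6 mice, wild-type (WT) or PPARβ-null (KO, without peroxisome proliferator-activated receptor β), 48 hr after partial hepatectomy (PH). The sample labels give an age of 4 months and the growth protocol a range of 3 to 5 months. Each genotype was sequenced as 1 library, and how many mice entered a library is not given in the sources used here. No value therefore carries an error between mice, and no test across samples was possible.

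In an adult liver most hepatocytes are at rest, and after PH they enter S phase in near synchrony. Before S phase, the origin recognition complex and Cdc6 load the MCM helicase on DNA. The kinase Cdc7 with its activator Dbf4, together with Cdc45 and the GINS complex, then turns the loaded helicase into a moving fork. DNA polymerase α with primase lays down primers, polymerase ε extends the leading strand and polymerase δ the lagging strand. The sliding clamp Pcna is placed by the clamp loader Rfc, Rpa covers single strands, and Fen1 and Lig1 join the lagging strand fragments. Many of these genes are textbook targets of the E2f transcription factors.

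Values are FPKM, fragments per kilobase of exon and sequencing depth, given per locus, so they can be compared between genes of different length. On a transcript of 1 kb, 1 FPKM was worth about 54.5 fragments in WT and 55.7 in KO, an estimate from the lowest values of single-exon genes. From it each ratio was given a 95% interval of counting error (exact binomial), which does not hold the difference between mice. Ppard, the targeted gene, stood at 2.67 FPKM in WT and at 2.42 in KO, so its whole-locus level does not check the genotype labels. The kit does not mark strand, so reads shared by overlapping genes on opposite strands cannot be told apart. No exon overlap with another gene and a locus at most 5% wider than annotated were found for 29 of the 43 genes.

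Most replication genes were lower in the KO library, and none was more than 2-fold higher. On the scale of log2(FPKM + 0.1), 31 of the 43 genes were more than 2-fold lower in KO, against 9.94% of the 15727 named genes whose FPKM averaged 0.1 or more. More than 2-fold higher were 0 of the 43 genes and 2.08% of all genes. Among the 11723 genes averaging 1 FPKM or more, 8.23% were lower and 1.71% higher by that measure. The median of the 43 replication genes lay at -1.69 in log2 KO/WT (95% interval over genes -2.14 to -1.28), beside -0.25 for all genes. By direction alone, 40 of the 43 genes were lower in KO, beside 74.8% of the 15727 genes. On the same scale 12 of the 43 genes were past 5-fold, 4 past 10-fold and 1 past 20-fold lower, beside 2.1%, 1.05% and 0.566% of all genes. As ratios of the deposited FPKM, which the added 0.1 does not pull down, 25 genes were above 3-fold, 15 above 5-fold, 5 above 10-fold and 4 above 20-fold in WT over KO. The last 4 were Top2a, Clspn, Cdc6 and Lig1. Shares of all genes were not counted for these plain ratios, so the counts stand without a background. A single gene, Cdc7, was below an FPKM of 1 in WT, whereas 14 genes were in KO, again without a count over all genes. With RNA of all liver cells mixed in each library, fewer cells in S phase and less of these mRNAs per cell cannot be told apart.

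Rfc2 lay just past the 2-fold line, with a WT/KO ratio of FPKM of 2.13, and Pole3, at 1.98, just within it. Gins4 had a ratio of 2.00 and was counted as within 2-fold, since the added 0.1 FPKM lowers the fold slightly. Among the 29 genes without exon overlap or a wide locus, 23 were past 2-fold lower, and their median was -1.72 in log2 KO/WT. Among the other 14 genes it was 8, with a median of -1.54.

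**Figure D1:**
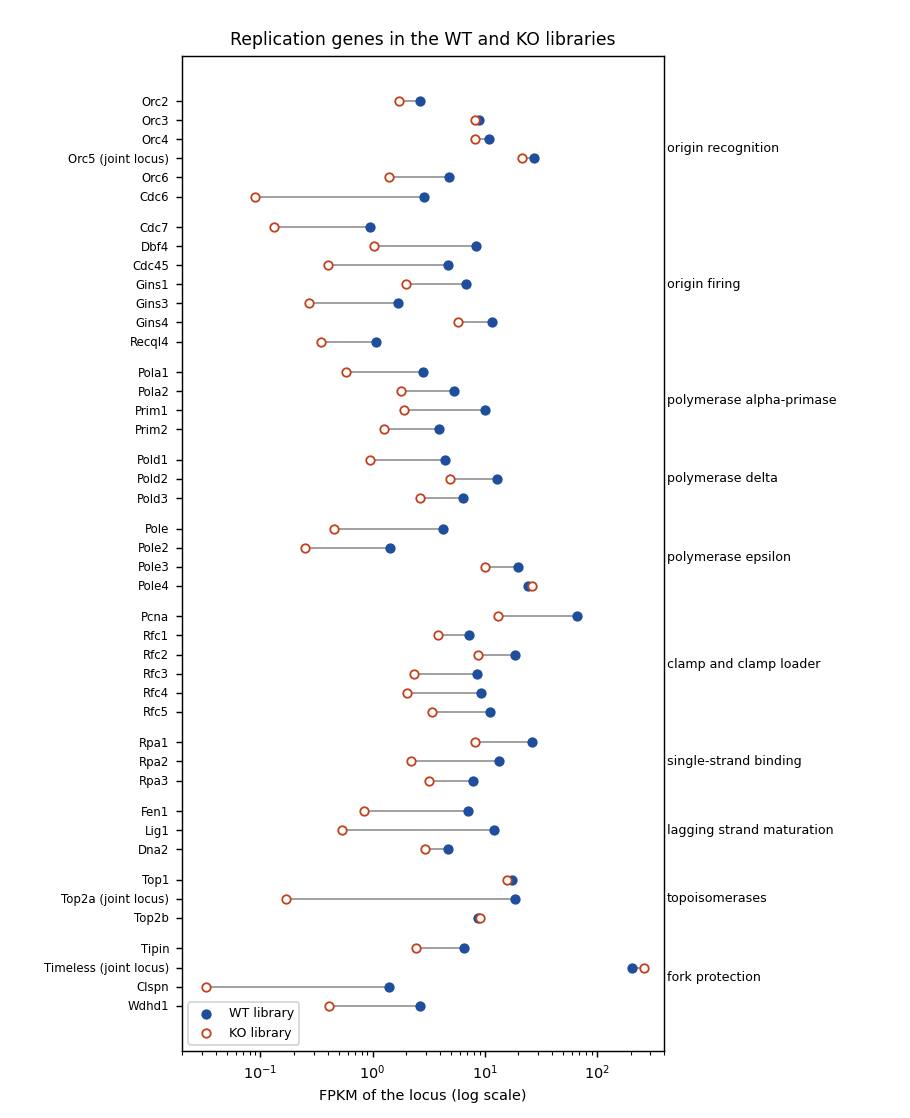
FPKM of each of the 43 genes in the WT library (filled blue) and the KO library (open red) on a log axis, grouped by role, with a line joining the values of a gene. The KO value lies to the left of the WT value for 40 genes, and Pole4, Top2b and Timeless are the exceptions. Of the 15727 named genes averaging 0.1 FPKM or more, 74.8% were lower in KO as well.

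The genes that recognise origins split into a near-equal and a strongly lower set. Orc3 stood at 8.94 FPKM in WT and at 8.28 in KO, and Orc5, whose row also names the pseudogene Gm15421, had 27.6 and 21.7. Orc4 had 10.8 and 8.22, and Orc2 had 2.65 and 1.73. These subunits of the origin recognition complex had WT/KO ratios of 1.08 to 1.53, and the direction of Orc3 turned when the libraries were scaled to the median gene or to equal upper quartiles. The loci of Orc2 and Orc4 overlap exons of Nif3l1 and of Acvr2a and Mbd5, respectively. The locus of Orc3 is wider than the gene, as are those of Orc2 and Orc4. In this role only Orc6 and Cdc6 had a locus without exon overlap or excess width. The near-equal and the lower set therefore also differ in how cleanly their loci can be read. Among the subunits in this role, Orc6, the smallest, stood apart at 4.82 FPKM in WT and 1.39 in KO. Its ratio was 3.45 (counting interval 2.84 to 4.26). Orc1, a further subunit, was listed with the licensing and helicase genes, and its mention here was decided with its values known. It stood at 0.391 FPKM in WT and at 0.0152 in KO, for a ratio of 25.8. With about 3.46 fragments in KO, the counting interval of Orc1 was wide, from 9.82 to 146.6. Cdc6, the loader that works with the complex, stood at 2.89 FPKM in WT and at 0.0891 in KO, for a ratio of 32.4 (21.5 to 50.6) that rests on about 756 and 23.8 fragments. Per kilobase, Cdc6 mRNA was thus at 0.60 of the level of Orc6 in WT and at 0.0639 of it in KO.

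Of the 7 genes that fire origins, 6 were more than 2-fold lower in KO, and their median log2 KO/WT was -2.16. Cdc45, which joins the helicase at the origin, stood at 4.67 FPKM in WT and at 0.399 in KO, for a ratio of 11.7 (8.63 to 15.9). Its locus also holds exons of Ufd1l on the other strand. Dbf4, the activating subunit, stood at 8.37 in WT and at 1.03 in KO (ratio 8.13), and its kinase Cdc7 had 0.94 and 0.132 (ratio 7.11). The pair kept a similar balance, since Dbf4 mRNA was 8.9 times that of Cdc7 in WT and 7.79 times in KO. The GINS genes did not keep theirs. Gins3 stood at 1.67 FPKM in WT and at 0.271 in KO (ratio 6.16), Gins1 had 6.82 and 1.98 (ratio 3.45), and Gins4 had 11.6 and 5.81. The counting intervals of these 3 ratios, 4.38 to 9.15, 2.80 to 4.26 and 1.78 to 2.25, did not overlap. They leave out the difference between mice, so whether the GINS balance differs between genotypes was not tested. Gins2, the remaining GINS gene, had no usable row. Recql4, a helicase needed at initiation, had 1.07 and 0.346 (ratio 3.09), and its exons overlap Mfsd3.

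**Figure D2:**
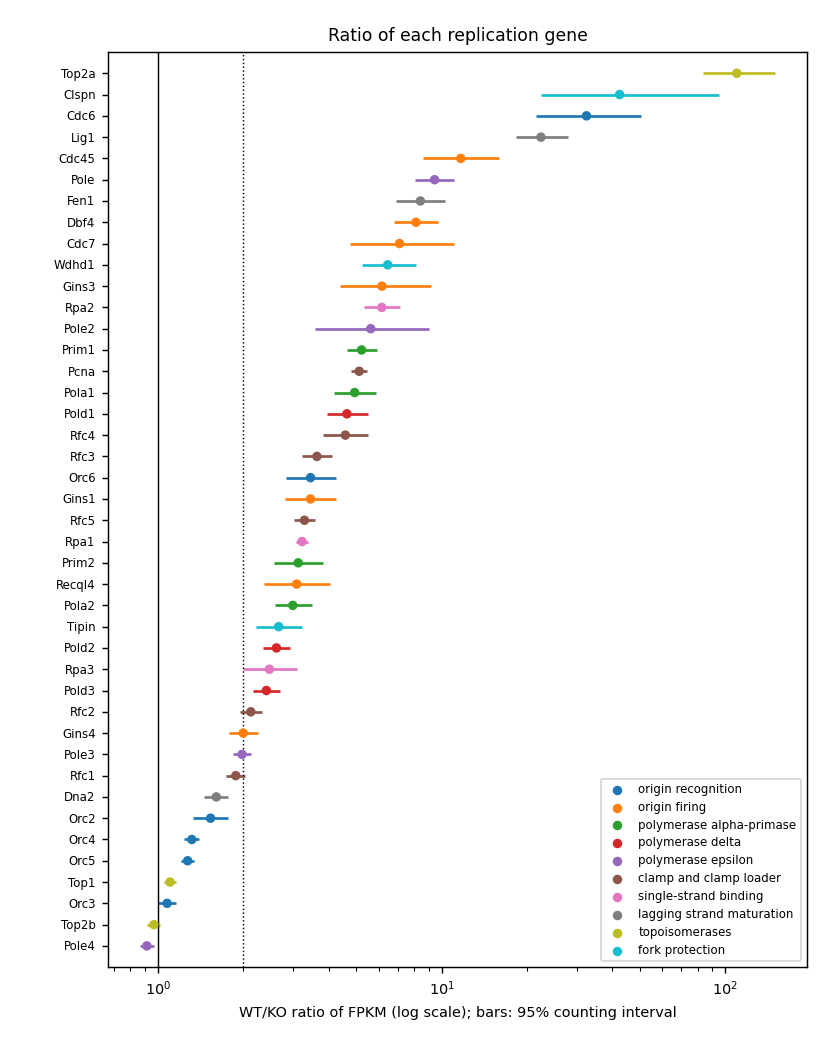
WT/KO ratio of FPKM for 42 genes on a log axis, coloured by role, with bars for the 95% counting interval, which leaves out the difference between mice. Ratios run from 0.915 for Pole4 to 109.9 for Top2a, and the dotted line marks 2-fold. Timeless, read as a joint locus with Apon, is left out.

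All 4 genes of polymerase α and primase were more than 2-fold lower in KO, within a narrow span. Prim1, the catalytic primase, stood at 9.97 FPKM in WT and at 1.91 in KO, for a ratio of 5.23 (4.65 to 5.90). Pola1, the catalytic polymerase, had 2.84 and 0.576 (ratio 4.94). The partners Prim2 (3.94 and 1.26) and Pola2 (5.34 and 1.79) had the smaller ratios of 3.13 and 2.99. A like order was seen in polymerase δ, of which all 3 genes were past 2-fold. Its catalytic gene Pold1 stood at 4.39 FPKM in WT and at 0.946 in KO (ratio 4.64, 3.96 to 5.49), while Pold2 and Pold3 had ratios of 2.62 and 2.41.

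Polymerase ε showed the widest split within a polymerase. Pole, the catalytic gene, stood at 4.26 FPKM in WT and at 0.450 in KO, for a ratio of 9.46 (8.09 to 11.1). Exons of Pole overlap Gm15792 on the other strand. Pole2 had 1.42 and 0.252 (ratio 5.63, 3.59 to 9.02). The small histone-fold genes behaved otherwise. Pole3, which also serves in a chromatin remodelling complex, stood at 20.02 in WT and at 10.1 in KO. Pole4 stood at 24.2 in WT and at 26.4 in KO, for a WT/KO ratio of 0.915 (0.865 to 0.968), and it stayed higher in KO under each scaling tried. Per kilobase, Pole4 mRNA was 5.68 times the level of Pole in WT and 58.7 times in KO.

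Pcna had the highest level of all members apart from the joint locus of Timeless, namely 66.8 FPKM in WT and 13.02 in KO. Its ratio was 5.13 (4.81 to 5.48), and its share of the summed FPKM of the 42 genes without Timeless went from 15.3% in WT to 7.15% in KO. The clamp loader was lower by less. The small subunits had ratios of 4.58 for Rfc4 (9.25 and 2.02), 3.64 for Rfc3 (8.51 and 2.34), 3.29 for Rfc5 (11.1 and 3.37) and 2.13 for Rfc2 (18.7 and 8.79). Exons of Rfc4 overlap Eif4a2 and those of Rfc5 overlap Wsb2. Rfc1, the large subunit, stood at 7.23 in WT and at 3.84 in KO (ratio 1.88, 1.74 to 2.03) and was the only gene of this role within 2-fold.

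The Rpa genes, which encode the trimer on single-stranded DNA, were all past 2-fold and unequal. Rpa2 stood at 13.5 FPKM in WT and at 2.19 in KO, for a ratio of 6.16 (5.33 to 7.13). Rpa1 had 26.6 and 8.25 (ratio 3.22, 3.08 to 3.38), and Rpa3 had 7.82 and 3.16 (ratio 2.47, 1.99 to 3.08). Rpa2 mRNA was therefore above Rpa3 in WT, at 1.72 times its level, and below it in KO, at 0.692 times.

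In lagging strand maturation, Lig1 and Fen1 were far lower in KO and Dna2 was not past 2-fold. Lig1, the ligase that seals nicks at the fork, stood at 12.1 FPKM in WT and at 0.540 in KO, for a ratio of 22.4 (18.3 to 27.9). Fen1, the flap nuclease, had 7.12 and 0.845 (ratio 8.43, 6.90 to 10.3). Both loci are wider than the gene and hold exons of a neighbour on the other strand, 6330408A02Rik at Lig1 and 1810006K21Rik and Gm10143 at Fen1. Dna2, a nuclease and helicase that trims long flaps, had 4.75 and 2.96 (ratio 1.61). Lig3, the ligase of mitochondrial DNA and of break repair, is no member and was set beside Lig1 after its values were seen. It stood at 5.23 in WT and at 5.47 in KO. Lig1 mRNA was thus 2.31 times that of Lig3 per kilobase in WT and 0.0988 times in KO.

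The topoisomerases held the largest and some of the smallest differences. Top2a, which untangles sister chromatids and is known as a gene of dividing cells, stood at 18.7 FPKM in WT and at 0.170 in KO. Its ratio was 109.9 (83.8 to 150.1) on about 5315 and 49.5 fragments, and its row also names the snoRNA SNORA32. From the lowest log2 KO/WT, it ranked 21 among the 11723 genes averaging 1 FPKM or more. Top2b, the form known from resting cells, stood at 8.81 in WT and at 9.09 in KO over its 2 rows. Both rows have the same locus, which is wider than the gene. The interval of Top2b, 0.919 to 1.02, includes 1, and its direction turned with equal sums of FPKM. Top1, which relaxes supercoils ahead of forks and in transcribed genes, had 17.6 and 15.96 (ratio 1.10), and its direction turned with scaling to the median gene or to upper quartiles. Of the summed FPKM of Top2a and Top2b, Top2a made up 68.0% in WT and 1.84% in KO.

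The promoters of this pair are shown because the genes share an activity and differ widely in their WT/KO ratios, with Top2a the highest of all members. Each line gives the 250 bases before the start of the RefSeq transcript, 5′ to 3′ on the strand of the gene, with CCAAT on either strand in capitals. The windows were found by exact match in NCBIM37 at chr11:98885504-98885753 on the minus strand for Top2a and at chr14:17197470-17197719 on the plus strand for Top2b.
Top2a: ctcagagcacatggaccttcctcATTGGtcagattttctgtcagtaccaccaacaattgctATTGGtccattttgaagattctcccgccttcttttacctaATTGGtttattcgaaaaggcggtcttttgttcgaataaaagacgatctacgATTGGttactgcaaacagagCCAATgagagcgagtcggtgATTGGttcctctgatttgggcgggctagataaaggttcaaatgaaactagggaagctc
Top2b: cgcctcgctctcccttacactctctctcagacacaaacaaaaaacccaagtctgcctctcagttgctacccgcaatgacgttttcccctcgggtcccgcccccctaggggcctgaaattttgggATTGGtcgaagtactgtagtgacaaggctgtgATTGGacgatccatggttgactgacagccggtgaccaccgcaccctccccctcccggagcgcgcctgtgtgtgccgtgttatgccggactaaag
The Top2a window holds 6 CCAAT matches and the Top2b window 2. At least 6 matches occurred in 22 of 27025 RefSeq promoter windows of 300 bases (0.0814%), from 250 bases before to 50 after the start. Of the other genes above 20-fold in WT over KO, Clspn had 2 matches in its window of 300 bases, and Cdc6 and Lig1 had 0. Any part of these matches in the ratios was not tested.

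**Figure D3:**
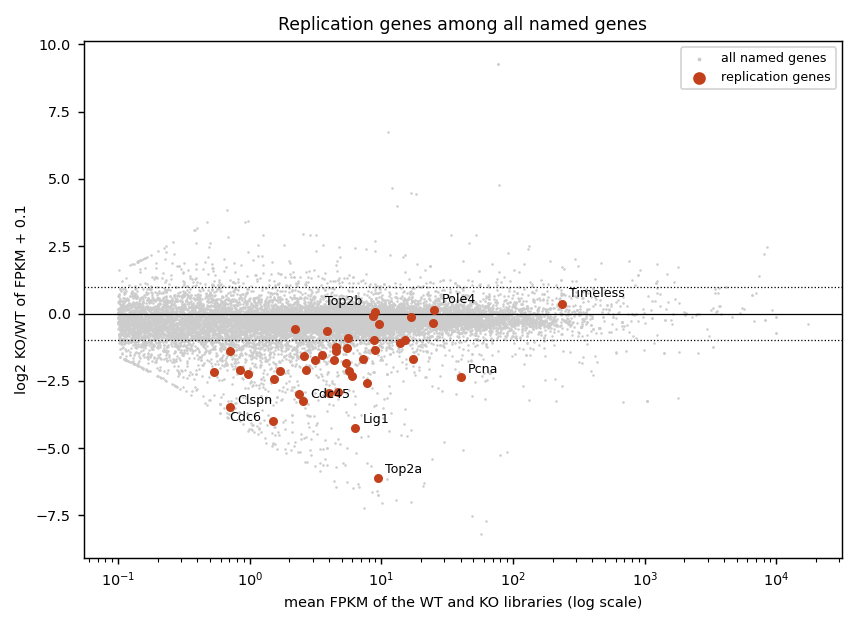
log2 KO/WT of FPKM + 0.1 against the mean FPKM (log axis) for 15727 named genes (grey, means of 0.1 FPKM and above) and the 43 replication genes (red), with dotted lines at 2-fold. Replication genes span mean levels from below 1 to 39.9 FPKM (Pcna), apart from the joint locus of Timeless above 100. Under the lower dotted line lie 31 genes.

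Genes that protect the fork were lower in KO as far as they could be read. Clspn, the mediator between stalled forks and the kinase Chk1, stood at 1.39 FPKM in WT and at 0.0327 in KO, for a ratio of 42.4. With about 9.16 fragments in KO its counting interval was wide, from 22.5 to 95.1. Wdhd1, which ties polymerase α to the helicase, had 2.66 and 0.412 (ratio 6.46, 5.24 to 8.12), and Tipin, the partner of Timeless, had 6.54 and 2.45 (ratio 2.67, 2.23 to 3.22). The row of Timeless also names Apon, an apolipoprotein gene, and stood at 204.5 in WT and at 263.1 in KO. This joint value cannot be divided between the genes, so no level of Timeless is known from it.

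The roles overlapped in their values. Medians of log2 KO/WT ran from -2.93 for lagging strand maturation over -2.16 for origin firing, -1.91 for fork protection, -1.85 for polymerase α and primase, -1.75 for clamp and loader, -1.68 for Rpa and -1.55 for polymerase ε to -1.37 for polymerase δ. Origin recognition, with -0.49, and the topoisomerases, with -0.14, had medians nearer to that of all genes, and each held genes near 0 and genes far below it. The order of the roles depends on a few loci. Without genes whose locus is wide or overlaps exons of another gene, origin recognition had a median of -2.85 over 2 genes (Orc6 and Cdc6), lagging strand maturation kept Dna2 alone at -0.67, and polymerase ε had -0.98 over 3 genes. Without the joint row of Timeless, fork protection had a median of -2.43 over 3 genes. The 12 genes within 2-fold were Orc2, Orc3, Orc4, Orc5, Gins4, Pole3, Pole4, Rfc1, Dna2, Top1, Top2b and Timeless. Without Timeless, the levels of the other 42 genes spanned 71.0-fold in WT and 806.7-fold in KO, and their summed FPKM was 437.6 in WT and 182.0 in KO.

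**Figure D4:**
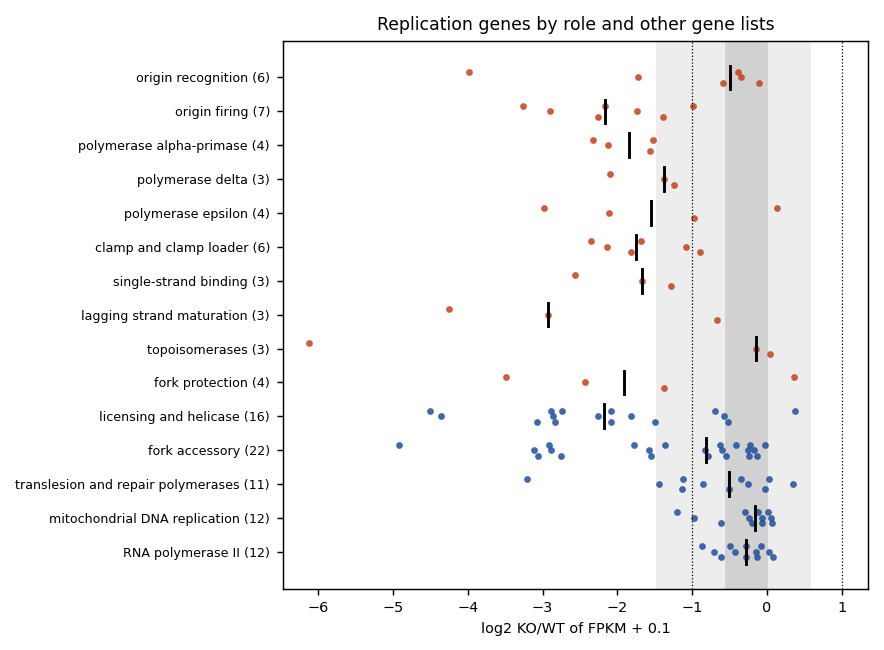
log2 KO/WT of FPKM + 0.1 of each gene, for the 10 roles of the replication genes (red) and 5 other lists (blue), with the median of each as a black bar and the number of genes in parentheses. Grey bands run from the 25th to the 75th and from the 5th to the 95th percentile of all named genes, and dotted lines mark 2-fold.

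Other genes of DNA replication were set beside these values. Of 16 licensing and helicase genes, 12 were more than 2-fold lower in KO and 0 higher, and the median was -2.18. Mcm6, a helicase subunit, stood at 27.2 FPKM in WT and at 1.11 in KO, while Mcm10 had 14.5 and 18.9. Donson, in a joint row with the ATP synthase gene Atp5o, had 193.6 and 119.2. Mcm9 and Mcmbp, named after their values were seen, were also within 2-fold. Among 22 accessory genes of the fork, 10 were past 2-fold lower and the median was -0.81. The most abundant of them by the mean of both libraries were Poldip2 (35.7 and 30.5), Tonsl in a joint row with Vps28 (32.1 and 29.2) and Rnaseh2c (24.2 and 16.5). Pif1, Dscc1 and Exo1 were picked out after their values were seen. Pif1 had 2.93 in WT and was listed at 0 in KO, and Dscc1 (0.721 and 0.0109) and Exo1 (0.868 and 0.0158) rested on fewer than 5 fragments each in KO.

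Polymerases outside the fork differed less. Among 11 translesion and repair polymerases, 4 were more than 2-fold lower in KO and the median log2 KO/WT was -0.51. These were Poln, read jointly with Haus3 (6.38 and 2.29), and Polh, Polk and Polq, which were named after their values were seen. Polq, the polymerase of end joining, stood at 0.978 FPKM in WT and at 0.0160 in KO. Mad2l2 had 16.3 and 20.8, and Polb, the base excision repair polymerase, had 11.5 and 11.4. Among 12 genes of mitochondrial DNA replication, 1 was past 2-fold lower, Mgme1 (5.58 and 2.37), and the median was -0.16. Primpol (1.85 and 0.893) had a ratio of FPKM of 2.08 and was within 2-fold with 0.1 FPKM added. Both were named after their values were seen. Tfam had 22.1 and 19.2, Ssbp1 17.7 and 15.0, and Polg, the mitochondrial polymerase, 11.3 and 11.7. None of 12 RNA polymerase II genes was past 2-fold in either direction, and their median was -0.28. By the mean of both libraries, the most abundant were Polr2f (28.2 and 25.8), Polr2l (21.8 and 22.3) and Polr2j (20.4 and 15.1).

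Promoters of the replication genes were searched because many members were lower together. RefSeq windows of 300 bases were matched for 36 of the 43 genes. The E2F-like motifs TTTCCCGC and TTTGGCGC, on either strand, were found in 9 of the 36 windows (25%), and in 1.63% of all 27025 windows. They stood in 7 of 25 windows of genes more than 2-fold lower in KO and in 2 of the 11 windows of genes within 2-fold. CCAAT was held by 16 of 36 windows, or 44.4%, beside 37.9% of all windows. The CHR-like motifs TTTGAA and TTCGAA were held by 7 of 36, or 19.4%, the same share as in all windows, and all 7 belonged to genes past 2-fold. No motif holds the letters of another. A match is a string of letters and was not tested as a binding site.

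Windows with an E2F-like match before the start are printed for genes with large differences (Gins3, Pola1) and for a gene within 2-fold (Orc3). Each gives the 250 bases before the start, 5′ to 3′ on the strand of the gene, with the match in capitals. In NCBIM37 they lie at chr8:98157209-98157458 (plus strand, Gins3), chrX:90877495-90877744 (minus, Pola1) and chr4:34562192-34562441 (minus, Orc3).
Gins3: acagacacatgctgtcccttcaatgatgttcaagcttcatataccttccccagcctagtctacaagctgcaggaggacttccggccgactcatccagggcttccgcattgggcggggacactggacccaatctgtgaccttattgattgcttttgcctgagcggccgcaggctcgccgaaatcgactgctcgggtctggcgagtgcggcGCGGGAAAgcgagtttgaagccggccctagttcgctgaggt
Pola1: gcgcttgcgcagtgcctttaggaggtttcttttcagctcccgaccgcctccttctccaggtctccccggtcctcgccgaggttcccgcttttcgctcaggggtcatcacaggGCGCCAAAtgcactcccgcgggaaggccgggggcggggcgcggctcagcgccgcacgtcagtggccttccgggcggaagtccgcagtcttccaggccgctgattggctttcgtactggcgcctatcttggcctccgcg
Orc3: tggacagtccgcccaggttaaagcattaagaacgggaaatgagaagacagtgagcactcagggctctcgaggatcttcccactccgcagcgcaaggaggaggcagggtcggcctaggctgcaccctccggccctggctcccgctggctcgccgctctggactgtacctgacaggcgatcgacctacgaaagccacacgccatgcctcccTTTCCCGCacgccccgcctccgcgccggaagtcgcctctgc
Gins3 and Orc3 carry the match with its first base at position -41 from the start, on opposite strands relative to the gene. Their WT/KO ratios were 6.16 and 1.08, and the locus of Orc3 is wider than the gene. Any part of the match in these ratios was not tested. For 33 of the 36 genes the RefSeq start lay within 250 bases of the outermost start annotated in GENCODE. For Cdc6, Timeless and Pole4 it lay 350, 6003 and 52491 bases inside the annotated gene, so the matches counted for Cdc6 and Pole4 stand at an inner start.

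**Figure D5:**
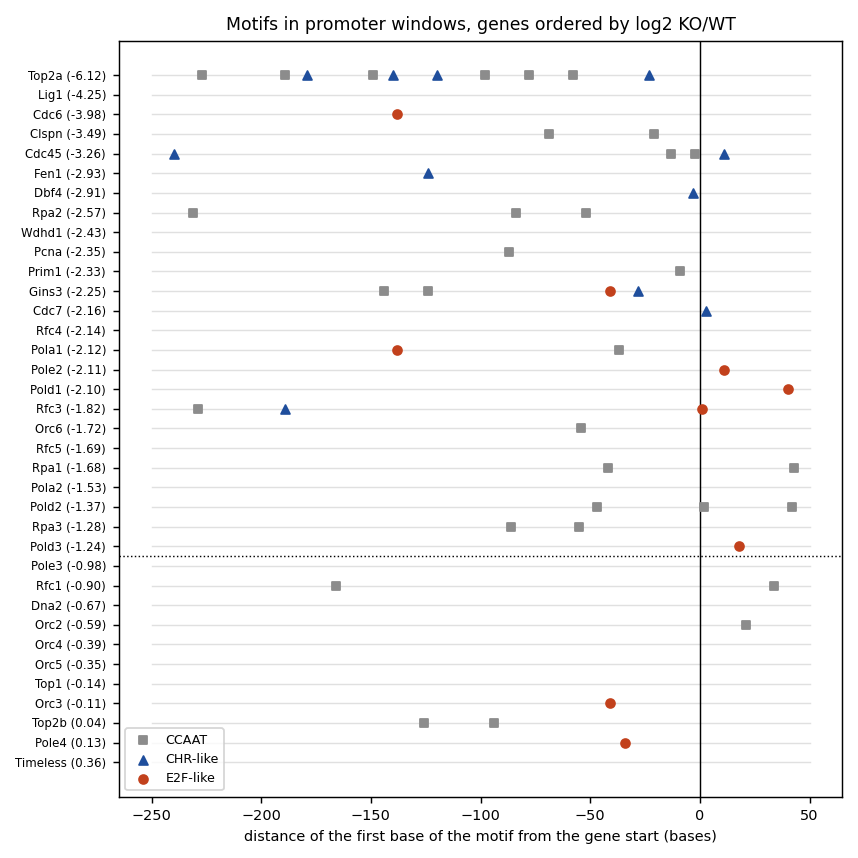
Places of CCAAT (grey squares), CHR-like (blue triangles) and E2F-like motifs (red circles) in the promoter windows of 36 genes, as the distance in bases from the gene start, with genes ordered by log2 KO/WT (in parentheses). The dotted line parts the 25 genes more than 2-fold lower in KO from the 11 within 2-fold, and all CHR-like matches lie above it. CHR-like matches were in 7 of the 36 windows, or 19.4%, the same share as in all windows.

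The library labels were compared with marker genes of the cell types that a liver can hold. Hepatocyte markers were abundant in both libraries, with a summed FPKM of 23652 in WT and 27168 in KO over 9 of 10 listed genes, of which Apoa2 (5080 and 5916), Fga (2531 and 4851) and Serpina1a (3337 and 4039) had the highest means of both libraries. Cps1 and Ass1 of this list were more than 2-fold lower in KO. Summed FPKM in WT and KO was 89.6 and 58.7 for 10 macrophage genes, 50.3 and 36.4 for 7 endothelial genes, 45.2 and 17.5 for 7 stellate cell genes and 29.8 and 25.8 for 6 cholangiocyte genes. Past 2-fold lower were Csf1r, Lyve1, the stellate genes Acta2, Col1a1 and Col3a1, and the cholangiocyte genes Krt19 and Krt7, all of these named after their values were seen. Erythroid genes summed to 296.1 and 252.5 over 8 genes, with Gata1 listed at 0 in both libraries. Markers of lymphocytes summed to 0.834 and 0.453 over 8 genes. Markers of neutrophils summed to 12.9 and 6.93 over 8 genes, with Ly6g, Mpo and Camp listed at 0 in both libraries. None of the genes of these last 3 lists was past 2-fold in either direction with 0.1 FPKM added. Several of these lists were lower in KO beside the replication genes, and their part in the result was not tested.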

How the data were processed

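RNA-sequencing libraries were made with the TruSeq RNA kit and read at 100 bp, as the labels state (paired end in the labels, single end in the study's methods). Per the submitters' processing notes the authors used TopHat2 (2.0.0) with mm9, then Cufflinks (version 1.3.0), and Cuffdiff gave the deposited FPKM per locus and library. Fold change, statistic, p-value and q-value columns hold the authors' own comparison and were not used. Of 38016 loci, 21 marked HIDATA were left out and 2302 had no symbol.

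The steps ran in Python (3.11.15) with pandas 2.3.3 and numpy 2.4.6, counting intervals in scipy 1.17.1, and plots were drawn with matplotlib 3.10.9. Rows of a symbol were summed, and each symbol of a joint row got the value of the row. Log2 ratios used a pseudocount of 0.1 FPKM, which understates low genes. No filter was put on the members. Fragments were estimated from the FPKM, the longest GENCODE vM1 transcript and the value of 1 fragment on 1 kb (0.0184 FPKM in WT, 0.018 in KO), and intervals cover counting error only. Intervals of a list's median come from order statistics over genes, which are not replicates. Coordinates are NCBIM37, counted from 1. Promoter windows are from RefSeq (GRCm38.p6, the first window listed per gene), placed on NCBIM37 by exact match.

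The members, the lists of licensing, fork, polymerase and marker genes and the alternatives were chosen with earlier results of these data known. Named were every member and, of each other list of polymerase and replication genes, the 3 with the highest mean FPKM of both libraries. Genes outside this are named as such. For the marker lists, sums over the list and the genes past 2-fold are given in place of these 3, which are named for hepatocytes alone. A search of protein motifs was planned and not run, since protein sequences were not used here.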

Additional observations from a re-analysis of the deposited data

How the results depend on the processing

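No paired analysis was possible because each genotype had a single library without a partner label. For the same reason, leaving out a replicate and testing across samples could not be done. The count of 31 genes more than 2-fold lower in KO ran from 23 to 36 over the alternatives, namely 36 at 1.5-fold, 23 at 3-fold, 30 after centring on the median gene, 29 with equal upper quartiles, 33 with equal sums of FPKM, 28 and 31 with pseudocounts of 1 and 0.01 FPKM, 31 with the highest row of each gene alone, 30 without joint rows and 26 with members averaging 1 FPKM or more. The count of genes more than 2-fold higher was 0 under each of these. Of all genes, the share more than 2-fold lower was 6.87% after centring, 7.06% with equal upper quartiles and 10.6% with equal sums of FPKM. At 1.5-fold and 3-fold the share of all genes was not counted. Leaving out genes with wide loci or exon overlap, an alternative added after the data were seen, left 23 of 29 genes. Centring moved the median of expressed genes by 0.24 on the log2 scale and equal upper quartiles by 0.27. A pseudocount of 1 FPKM brought the median log2 KO/WT of the replication genes to -1.19, that of polymerase α and primase to -1.24 and that of polymerase δ to -1.23, and the share of all genes past 2-fold lower to 4.36%. The median of polymerase δ was -1.13 after centring and -1.10 with equal upper quartiles. The median of the topoisomerases changed sign, to 0.0945 and 0.13, under these scalings. For translesion and repair polymerases the count past 2-fold lower was 2 under both scalings and 1 with a pseudocount of 1 FPKM. For mitochondrial DNA replication it was 0 under both scalings and with a pseudocount of 1 FPKM, and 2 with equal sums of FPKM and with a pseudocount of 0.01 FPKM. The cause of these shifts was not tested. The other 146 values kept their direction. Of these, 136 stayed within 1.5 times of the value reported and 10 were medians of roles that moved by more than 1.5 times while inside an interval that spans most of the few genes of a role. Origin recognition (-0.49) had -2.85 without wide or overlapping loci, -0.26 after centring and -0.22 with equal upper quartiles. Lagging strand maturation (-2.93) had -0.67 without wide or overlapping loci, where Dna2 alone was left. Polymerase ε (-1.55) had -0.98 without them and with members averaging 1 FPKM or more, and -0.94 with a pseudocount of 1 FPKM. That pseudocount gave -1.07 for origin firing (-2.16) and -1.17 for fork protection (-1.91). The topoisomerases (-0.14) had -0.05 without joint rows.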

Other observations

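Cdc6 and Top2a, which had the third largest and the largest WT/KO ratios among the replication genes, are near neighbours on chromosome 11, where 69.0 kb lie between their loci. The place was looked at after the values were seen. Rara, which encodes a retinoic acid receptor and lies between them, stood at 5.70 FPKM in WT and at 4.69 in KO, and Gjd3, also between them, was listed at 0 in both libraries. On the outer sides, Wipf2 stood at 1.93 in WT and at 2.01 in KO, and Igfbp4, a binding protein of insulin-like growth factors, had 587.3 and 708.8. The large difference of Cdc6 and Top2a was therefore not seen in the expressed genes next to them.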
